A study of Mus musculus with 12 samples.

Results

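The TGF-beta and BMP pathway genes described here are 10 genes of the transforming growth factor beta (TGF-beta) and bone morphogenetic protein (BMP) signalling families in mouse lung. They comprise the ligand genes Tgfb1, Tgfb2, Tgfb3, Bmp4 and Bmp5, the receptor genes Tgfbr1, Tgfbr2 and Bmpr2, and the inhibitory SMAD genes Smad6 and Smad7. They were chosen by symbol, by matching the Ensembl identifiers of the count tables to GENCODE M21, and all 10 were found among the 56262 identifiers of the lung table and among the 54532 of the AT2 table. RNA was sequenced from C57BL/6 mice that lacked the Mediator subunit gene Med23 in their T cells; the labels do not give the driver of the deletion. Spontaneous lung tumours and the lung tissue next to them were taken from 3 knockout mice (102, 217 and 224) at 18 months of age, so both groups come from the same animals and carry the deletion and no wild-type lung tissue is part of the comparison. Alveolar type 2 (AT2) cells, which make surfactant, were isolated by cell sorting at 6 months from 3 mice with the Med23 knockout in T cells (175, 179 and 191) and from 3 wild-type mice (176, 177 and 190). The questions were what the tumours are and how AT2 cells look before tumours form.

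TGF-beta and BMP ligands are secreted dimers that bring together type I and type II receptor kinases on the cell surface. The type I receptor then phosphorylates receptor-regulated SMAD proteins, which join Smad4 and act on target genes in the nucleus. TGF-beta is secreted in a latent form that must be activated outside the cell, and the inhibitory proteins Smad6 and Smad7 are themselves target genes that damp the signal. In the lung, these pathways are known for roles in branching, alveolar repair, blood vessel maintenance and fibrosis.

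Of the 10 genes, Bmp4 was higher and Smad6 was lower in the tumours, and their start regions are shown here because they are the members that passed the test. The windows run from 250 bases before the annotated start to 10 bases into the transcript, and come from RefSeq on GRCm38.p6, which held such a window for 8 of the 10 genes. The Bmp4 window is chr14:46390660-46390919 and the Smad6 window is chr9:64022050-64022309, both on the minus strand. The letters searched on both strands were GTCT or AGAC, the short SMAD box, GTCTAGAC, its palindrome, which holds the short box on each strand, side by side, and GGCGCC, a GC palindrome bound by BMP-regulated SMADs. Capitals mark the matches.
Bmp4: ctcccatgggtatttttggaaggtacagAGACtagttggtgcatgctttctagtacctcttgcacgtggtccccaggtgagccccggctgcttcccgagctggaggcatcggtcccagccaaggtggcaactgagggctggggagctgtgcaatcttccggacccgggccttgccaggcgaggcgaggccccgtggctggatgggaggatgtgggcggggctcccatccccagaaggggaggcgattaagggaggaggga
Smad6: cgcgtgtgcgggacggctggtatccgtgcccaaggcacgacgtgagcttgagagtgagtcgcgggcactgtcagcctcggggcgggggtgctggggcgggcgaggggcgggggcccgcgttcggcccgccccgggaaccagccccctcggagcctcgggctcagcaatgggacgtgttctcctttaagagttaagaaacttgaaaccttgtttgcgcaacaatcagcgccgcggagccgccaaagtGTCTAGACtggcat
The Bmp4 window held 1 short box and neither palindrome. The Smad6 window held 1 GTCTAGAC palindrome, which spans the annotated start, and no GGCGCC. Among 32851 windows of the same 260 bases in RefSeq, 84% held the short box, 9.96% held GGCGCC and 0.177% (58 windows) held GTCTAGAC. These matches describe the letters of the windows, and no binding was measured.

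The 2 count tables were normalised and tested apart, and levels are set side by side across them only as a description. Libraries held 65163100 to 77951014 counts in lung and 15943084 to 18913242 counts in AT2 cells, so a count of 3 stood for 0.0376 to 0.0477 CPM (a count relative to its library's total, scaled with edgeR's TMM factors) in lung and 0.165 to 0.181 CPM in AT2 cells. Med23 lay at 18.3 to 36.8 CPM in tumours and 21 to 31.5 CPM in adjacent lung, and at 42.1 to 46.5 CPM in knockout and 34.4 to 46.4 CPM in wild-type AT2 cells; since it was deleted in T cells, its level in these samples checks no label. The summed level of 8 AT2 markers was 71560 to 223300 CPM in tumours and 20950 to 41080 CPM in adjacent lung, where 2 of the 8 (Sftpb and Lamp3) were higher in tumours, and 140500 to 178000 CPM in the sorted AT2 cells. Sftpc was the largest part of the sum, at 38770, 183000 and 55000 CPM in tumours 102, 217 and 224. It did not pass between tumour and adjacent lung (edgeR adjusted p = 0.131). The summed level of 8 endothelial markers was 607 to 739 CPM in tumours and 2940 to 5497 CPM in adjacent lung, with 6 of the 8 lower in tumours. It was 4.65 to 13.1 CPM in AT2 cells.

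Tumour libraries were compared with adjacent libraries by edgeR's quasi-likelihood test with Benjamini-Hochberg adjustment over all 19995 genes tested, and a gene passed at an adjusted p under 0.05. Across all genes, 2.86% passed as higher and 7.18% as lower in tumours, and the median log2 fold change was 0.04. Among the 10 pathway genes, 1 passed as higher, 1 as lower and 8 did not pass, with a median log2 fold change of -0.49. Of their log2 fold changes, 3 were positive and 7 negative. Tumour and adjacent values did not overlap for 2 genes that were higher and 3 that were lower in tumours, where 11.6% and 18.9% of all genes tested did so. With the mouse as a block, which compares tumour with adjacent lung within each animal, 1 member passed as higher and 3 as lower, where 5.57% and 9.34% of all genes did. When libraries were scaled by their totals only, the median over all genes was -0.18, and no member changed sign in the tumour comparison.

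**Figure D1:**
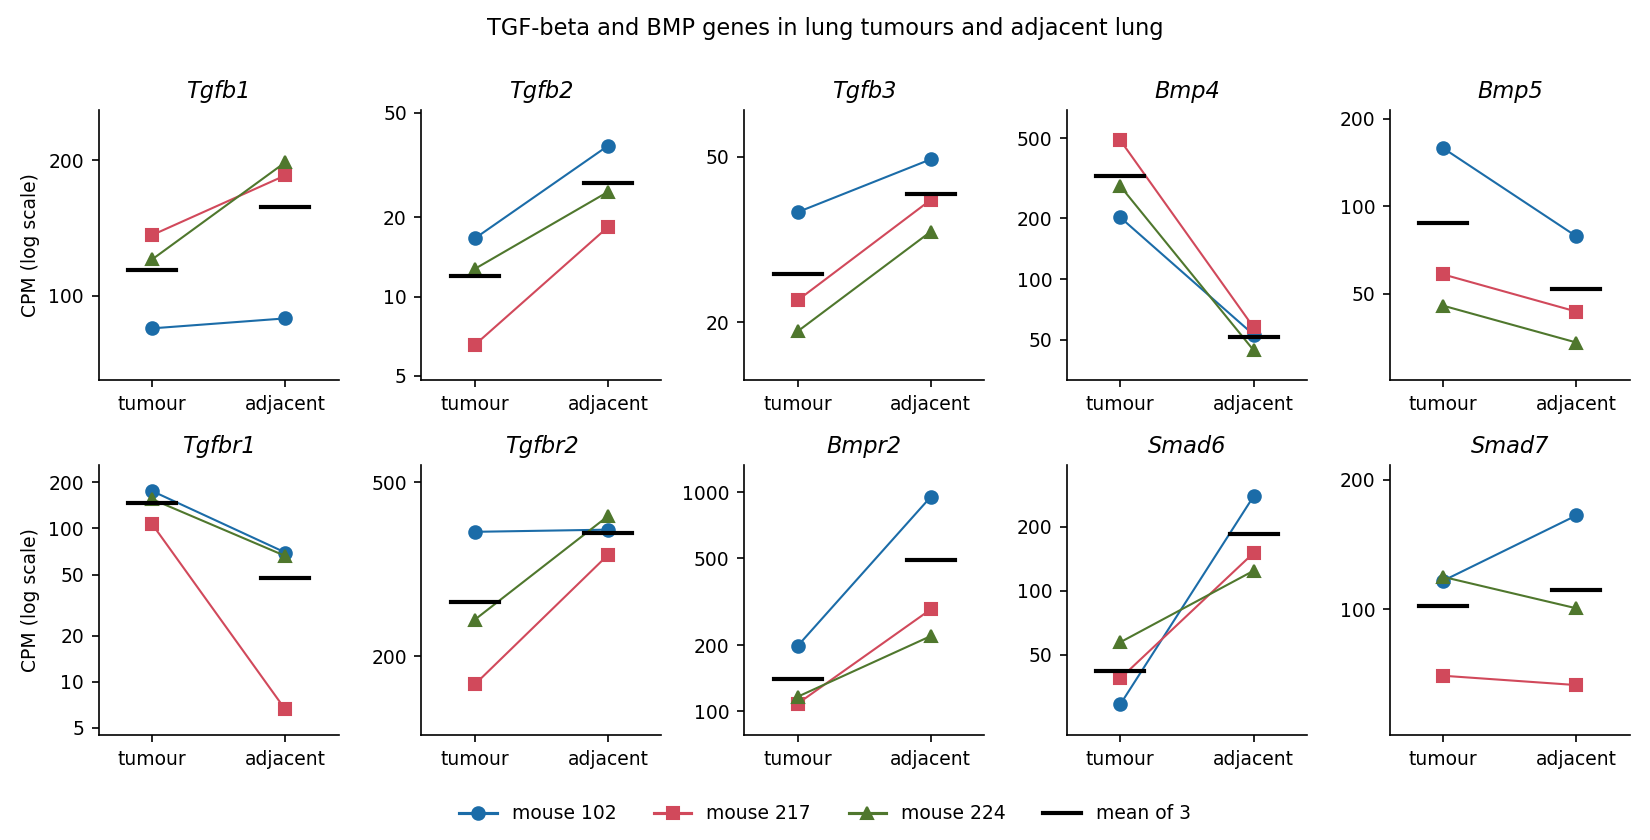
Level of each of the 10 genes in CPM (log scale) in lung tumours and adjacent lung, with 1 symbol and line per mouse and a bar at the mean of 3. Bmp4 was higher in all 3 tumours (202 to 487 CPM) than in adjacent lung (44.4 to 57.6 CPM), and Smad6 was lower in all 3 (29.2 to 57.1 against 124 to 278 CPM).

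Bmp4 encodes a BMP ligand that acts in lung branching and in the distal airway epithelium. It stood at 202, 487 and 289 CPM in the tumours of mice 102, 217 and 224, against 53.0, 57.6 and 44.4 CPM in the adjacent lung of the same mice. Every tumour was above every adjacent library, and tumour 217 was the highest. The means were 326 ± 146 CPM in tumours against 51.7 ± 6.73 CPM in adjacent lung (SD, n = 3 each), a 6.31-fold difference (log2 fold change 2.66 ± 0.41 SE, edgeR adjusted p = 0.0115). When each library was left out in turn the log2 fold change lay between 2.18 and 2.89, and the call was lost without the adjacent lung of mouse 224 (adjusted p = 0.0538). In the sorted AT2 cells, Bmp4 lay between 80.0 and 101 CPM in all 6 libraries, so every tumour held more than every AT2 library and every AT2 library more than every adjacent one. The AT2 marker sum moved in the same direction as Bmp4 between tumour and adjacent lung, and its part in the result was not tested. In bulk tissue, a change in the number of cells of a type and a change in the RNA per cell cannot be told apart.

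Bmp5, a BMP ligand related to Bmp6 and Bmp7, had 159, 58.2 and 45.4 CPM in tumours 102, 217 and 224 and 78.7, 43.3 and 33.9 CPM in their adjacent lung. Its level was above that of the paired adjacent lung in each mouse, but the groups overlapped and tumour 102 stood well above the other tumours. The gene did not pass (log2 fold change 0.75 ± 0.55, edgeR adjusted p = 0.486), and without tumour 102 the value was -0.02. In addition, 46.7% of the exon bases of Bmp5 overlap the antisense gene Gm26903, and since the library kit marks no strand the reads of these genes cannot be told apart.

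The TGF-beta ligand genes had lower means in tumours than in adjacent lung, and none of them passed with the group as the only term. Tgfb1, the TGF-beta isoform widely made by immune and stromal cells, had 84.7, 136 and 120.4 CPM in tumours 102, 217 and 224, against 89.1, 185 and 198 CPM in adjacent lung. The groups overlapped, because both libraries of mouse 102 were the lowest of their groups (log2 fold change -0.47 ± 0.39, edgeR adjusted p = 0.547). Tgfb3, an isoform known for its part in palate closure and lung development, had 36.8, 22.6 and 19 CPM in tumours and 49.3, 39.4 and 33.0 CPM in adjacent lung. It was lower in the tumour of each mouse, with overlap between the groups (log2 fold change -0.64 ± 0.35, edgeR adjusted p = 0.337).

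Tgfb2, an isoform with roles in heart and lung development, was the ligand gene of the TGF-beta group with the largest difference. It had 16.6, 6.54 and 12.7 CPM in tumours 102, 217 and 224, against 37.5, 18.4 and 25.0 CPM in adjacent lung, and the groups did not overlap. It did not pass without the mouse in the fit (log2 fold change -1.17 ± 0.45, edgeR adjusted p = 0.157) and passed as lower with the mouse as a block (log2 fold change -1.21 ± 0.21, adjusted p = 0.0280). Mouse 102 had the highest level in both tissues, and the within-mouse differences on the log2 scale were -1.17, -1.49 and -0.97 for mice 102, 217 and 224. In AT2 cells Tgfb2 was near the limit of detection, with 1 to 17 counts per library. The summed level of 8 fibroblast markers was 466 to 1026 CPM in tumours, 1840 to 2890 CPM in adjacent lung and 1.27 to 2.18 CPM in AT2 cells, with 0 of the 8 passing between tumour and adjacent lung and a median log2 fold change of -1.59. In AT2 cells the markers Tcf21 and Lum were at 0. The part of these cells in the Tgfb2 values was not tested.

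To set the TGF-beta isoforms on 1 scale, their levels were divided by exon length (CPM per kb of merged exons), and each isoform was expressed as its share of the summed level of the 3. Tgfb1 made up 69.3 ± 12.4% in tumours and 63.5 ± 15.5% in adjacent lung (SD, n = 3 each; exact permutation p = 0.5, two-sided). Tgfb2 made up 6.53 ± 3.10% in tumours and 10.3 ± 5.62% in adjacent lung (exact permutation p = 0.5), and Tgfb3 24.2 ± 9.93% in tumours and 26.2 ± 10.1% in adjacent lung (exact permutation p = 0.6). The adjusted p was 0.6 for each of the 3 shares, and the smallest p that 3 libraries against 3 allow in this permutation test is 0.1. Within the mice 102, 217 and 224, tumour minus adjacent differences were 9.36, 6.38 and 1.76 points for Tgfb1, -7.32, -2.93 and -1.17 points for Tgfb2 and -2.04, -3.45 and -0.587 points for Tgfb3. Each isoform thus had 1 sign in all 3 mice, where an exact permutation test by sign flips within mice gave p = 0.25, the smallest that 3 pairs allow. Tgfb1 had the largest share in every lung library. In AT2 cells the order was different: Tgfb3 made up 70.6 ± 2.42% in knockout and 67.3 ± 3.61% in wild-type cells, Tgfb1 29.0 ± 2.72% in knockout and 32.3 ± 3.50% in wild-type cells, and Tgfb2 under 1% in all 6 libraries.

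The receptor genes had log2 fold changes of both signs, and none passed with the group as the only term. Tgfbr1, the type I receptor for TGF-beta, had 176, 107 and 155 CPM in tumours 102, 217 and 224, against 69.7, 6.58 and 66.2 CPM in adjacent lung. All 3 tumours were above all adjacent libraries, and the adjacent lung of mouse 217 lay more than 5-fold below every other lung library. In that library 40 of the 12545 genes compared, Tgfbr1 among them, lay as far below all others, against 6 to 102 genes in each of the other lung libraries. The median exon length of the 40 was 6.60 kb, against 4.44 kb for all genes compared. In tumour 217 it was 6.04 kb for the 102 genes so low there, Twsg1 among them. In the libraries of mice 102 and 224 it was 2.71 to 3.16 kb. What these lengths have to do with the Tgfbr1 value was not tested. The gene did not pass (log2 fold change 1.62 ± 0.75, edgeR adjusted p = 0.243), and leaving out each library in turn gave log2 fold changes of 1.11 to 2.05 with none passing. Tgfbr2, the type II receptor that binds TGF-beta and recruits Tgfbr1, had 385, 172 and 242 CPM in tumours and 389, 341 and 418 CPM in adjacent lung. Its levels were nearly equal in the tissues of mouse 102 and lower in the tumours of the other 2 mice, with overlap between the groups (log2 fold change -0.52 ± 0.37, edgeR adjusted p = 0.471).

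Bmpr2 encodes the type II receptor of BMP ligands, known for its part in keeping pulmonary vessels intact. It had 199, 108 and 116 CPM in tumours 102, 217 and 224, against 956, 292 and 221 CPM in adjacent lung. The groups did not overlap, and the adjacent lung of mouse 102 was far above the other adjacent libraries. The gene did not pass without the mouse in the fit (log2 fold change -1.80 ± 0.61, edgeR adjusted p = 0.112), and the value was -0.85 without the adjacent lung of mouse 102. It passed as lower with the mouse as a block (log2 fold change -1.54 ± 0.31, adjusted p = 0.0374) and in DESeq2 (adjusted p = 0.0297). The endothelial marker sum was lower in the same tumours, and its part in the Bmpr2 values was not tested.

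**Figure D2:**
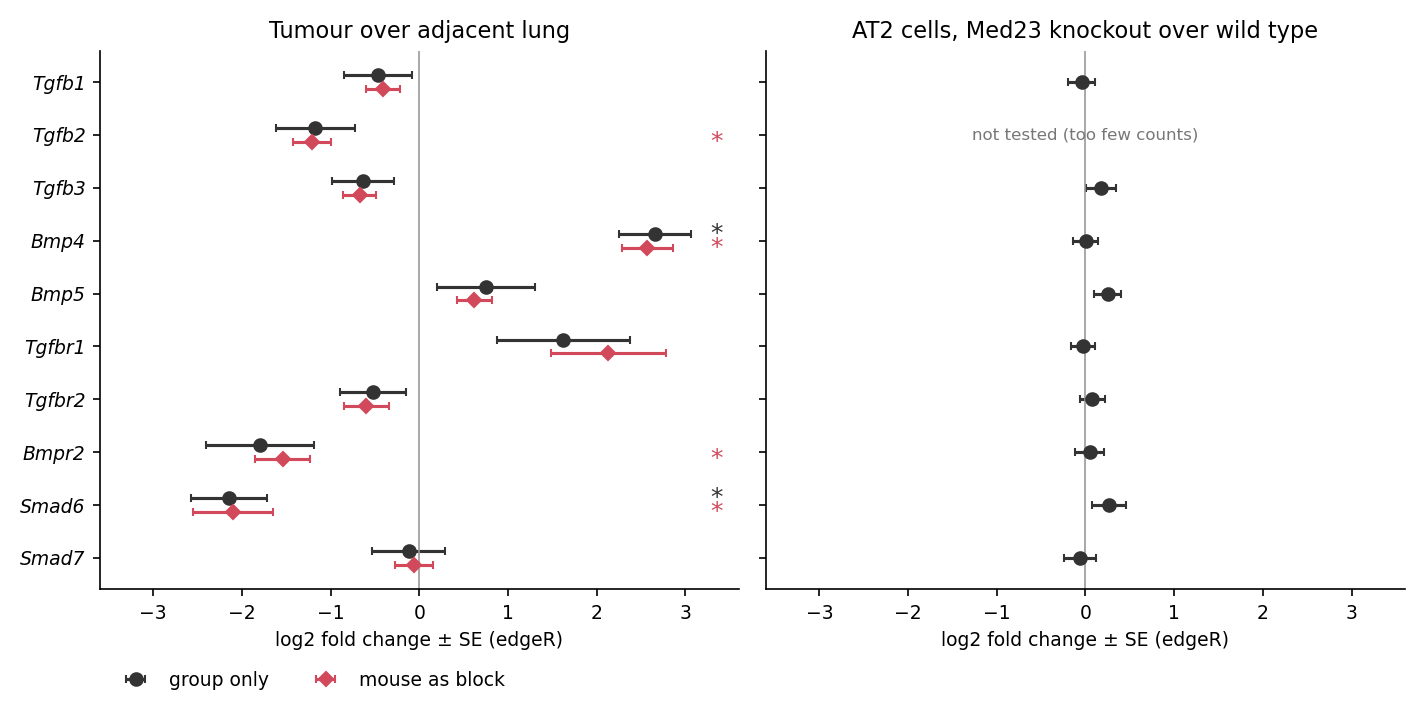
Log2 fold change (± SE, edgeR) of the 10 genes in tumour over adjacent lung (left), with the group as the only term and with the mouse as a block, and in Med23-knockout over wild-type AT2 cells (right). Asterisks mark an adjusted p under 0.05: Bmp4 and Smad6 in both fits, and Tgfb2 and Bmpr2 with the block; the AT2 values lay between -0.06 and 0.26 with none passing.

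Of the inhibitory SMAD genes, Smad6 passed as lower and Smad7 did not pass; the difference between them was not tested. Smad6 acts mainly on the BMP branch. It had 29.2, 38.6 and 57.1 CPM in tumours 102, 217 and 224, against 278, 150.4 and 124 CPM in adjacent lung. Every tumour was below every adjacent library, and mouse 102 held both the lowest tumour value and the highest adjacent value. The means were 41.6 ± 14.2 CPM in tumours against 184 ± 82.4 CPM in adjacent lung (SD, n = 3 each), which is 4.42-fold lower in tumours (log2 fold change -2.14 ± 0.43, edgeR adjusted p = 0.0242). Leaving out each library in turn gave log2 fold changes of -2.44 to -1.72 and adjusted p-values of 0.0451 to 0.0705, and the call held only without tumour 217. Without both libraries of mouse 217 the log2 fold change was -2.27 (adjusted p = 0.0797). AT2 cells held 12.2 to 20.1 CPM, below every lung library. The endothelial markers were lower in the same tumours, and their part in the Smad6 result was not tested.

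Smad7, which damps both branches, had 116, 70.0 and 119 CPM in tumours 102, 217 and 224, against 165, 66.6 and 100.4 CPM in adjacent lung. The groups overlapped, the difference was negative in mouse 102 and positive in mice 217 and 224, and the gene did not pass (log2 fold change -0.12 ± 0.41, edgeR adjusted p = 0.908). In AT2 cells it lay at 24.5 to 34.9 CPM, below every lung library.

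For each member, the genes of most similar profile were taken as those with the smallest root-mean-square difference in centred log2 CPM over the 6 lung libraries, among 11901 genes with a mean of at least 5 CPM. For Bmp4 they were Krt18 (0.20), Elf5 (0.22) and Krt23 (0.26), where the median gene stood at 1.4. For Smad6 they were Hey1 (0.20), Ncs1 (0.22) and Ddo (0.23), with a median of 1.27 over all genes. For Bmpr2 they were Tmtc2 (0.16), Fmo2 (0.19) and Lmod1 (0.20), with a median of 1.17. For Tgfbr1 they were Dlg5 (0.19), Rab11fip3 (0.19) and Uvrag (0.42), with a median of 1.63. The Tgfbr1 profile includes its low level in the adjacent lung of mouse 217 (6.58 CPM), and the weight of that library in this likeness was not tested. The nearest genes were Krt19 for Tgfb1, Prkx for Tgfb2, Dhdh for Tgfb3, Klhl13 for Bmp5, Mapk14 for Tgfbr2 and Tnrc6b for Smad7, at 0.07 to 0.14. These are descriptions of 6 libraries.

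Beyond the 10 genes, 96 other genes of the pathways were listed by role, of which 86 were tested in lung. Of these, 4 passed as higher and 13 as lower in tumours, and 69 did not pass, with a median log2 fold change of -0.32. Over all genes tested, 2.86% passed as higher and 7.18% as lower. With the mouse as a block, 7 of the 86 passed as higher and 20 as lower, where 5.57% and 9.34% of all genes did. Beside the endothelial and fibroblast sums given above, the summed level of 6 smooth muscle markers was 77.0 to 270.5 CPM in tumours, 280.5 to 1102 CPM in adjacent lung and 0.439 to 1.63 CPM in AT2 cells, with 3 of the 6 lower in tumours. Some markers are also among the 86 genes, namely Acta2 and Tagln for smooth muscle, and Col1a1, Col1a2 and Dcn for fibroblasts. The part of these cell types in the values of the pathway genes was not tested.

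**Figure D3:**
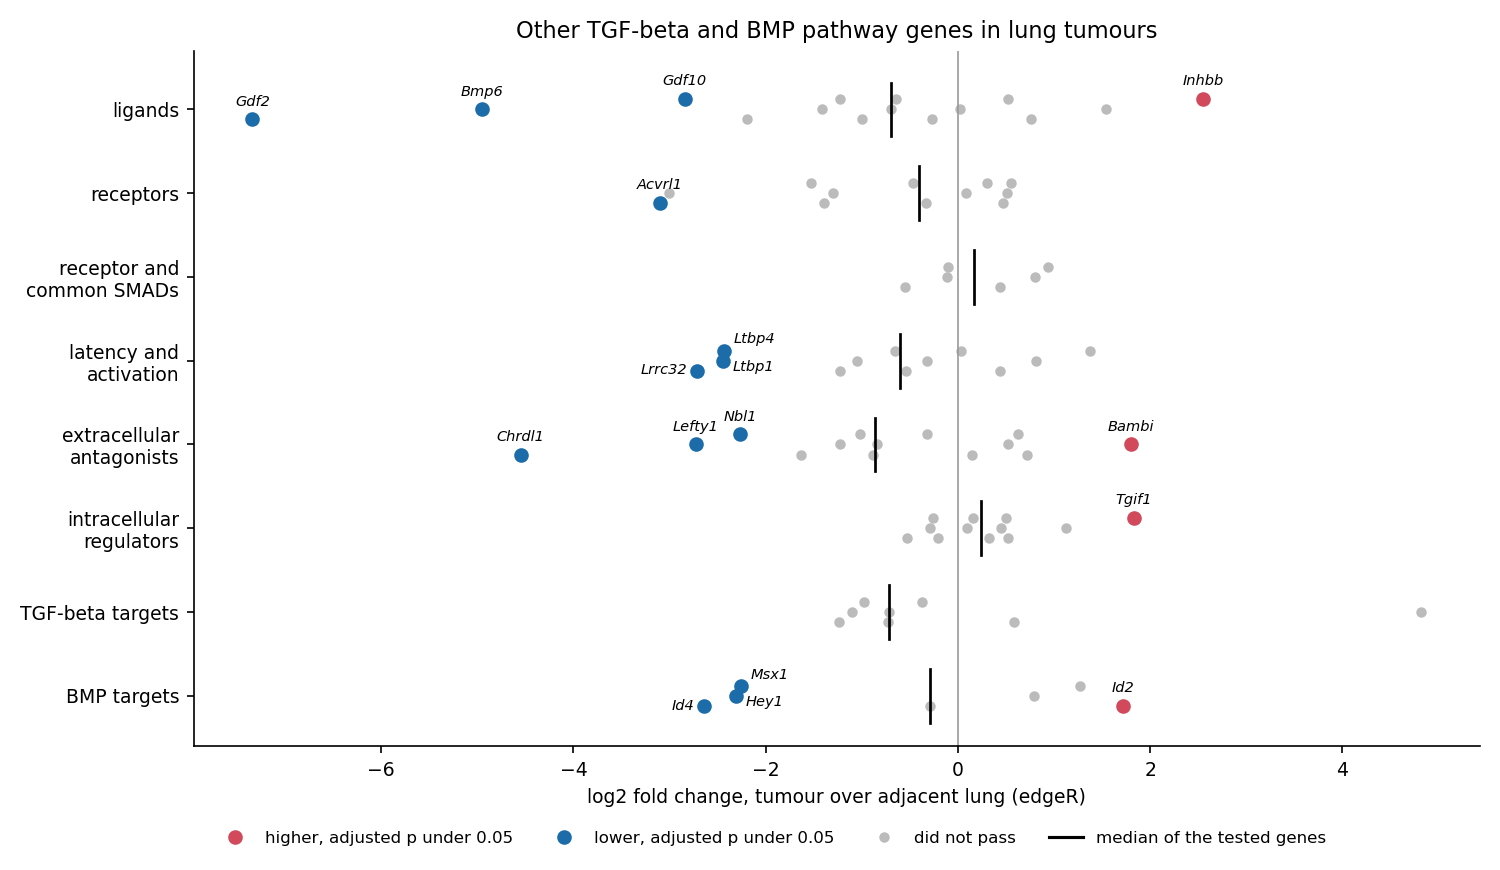
Log2 fold change (edgeR, tumour over adjacent lung) of the 86 other pathway genes tested, by role, with the genes that passed named and coloured and the median of each role as a bar. The 13 lower genes are spread over ligands, receptors, latency genes, antagonists and BMP targets, and the 4 higher ones are Inhbb, Bambi, Tgif1 and Id2. Gdf2 had 0 counts in all tumours, so the size of its plotted value of -7.34 is not measured. Against a floor of 3 counts over the group it was at least 18.8-fold lower.

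Among 15 other ligand genes tested, 1 rose and 3 fell in tumours, where 2.86% and 7.18% of all genes tested did. Bmp6, a BMP ligand known from liver endothelium for its part in iron balance, had 6.71, 7.77 and 4.05 CPM in tumours 102, 217 and 224, against 295, 165 and 116 CPM in adjacent lung. It was 31.1-fold lower in tumours, with no overlap (log2 fold change -4.96 ± 0.51, edgeR adjusted p = 0.00592), and it kept its call when each library was left out in turn. AT2 cells held at most 0.344 CPM. Gdf10 was lower as well, at 1.79 CPM in tumours against 12.8 CPM in adjacent lung (log2 fold change -2.84 ± 0.69, edgeR adjusted p = 0.0403), a call kept only without tumour 217 among the single libraries left out and lost without the filter on low counts (adjusted p = 0.0536). Gdf2, which encodes the circulating ligand BMP9, had 0 counts in all tumours and 64 counts over the adjacent libraries, at least 18.8-fold lower against a floor of 3 counts over the group. Its call (edgeR adjusted p = 0.0359) was lost when any library was left out, without the filter (adjusted p = 0.0699) and in the block fit (adjusted p = 0.111).

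Inhbb, the activin B subunit gene, was the ligand gene that rose; it was named after its values were seen, as were Bambi, Id2, Eng, Bmpr1b, Smad3, Ltbp3, Pmepa1, Id1 and Thbs1. It had 412, 148 and 231 CPM in tumours 102, 217 and 224, against 51.1, 37.4 and 46.5 CPM in adjacent lung, with no overlap. The difference was 5.86-fold (log2 fold change 2.55 ± 0.44, edgeR adjusted p = 0.0152), and the call was lost without any 1 of the adjacent libraries. AT2 cells held 14.6 to 20.7 CPM, below every lung library.

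Of 12 other receptor genes, 1 fell and none rose, where 7.18% and 2.86% of all genes tested did. Acvrl1, the type I receptor ALK1 of endothelial cells, averaged 46.9 ± 15.2 CPM in tumours against 402 ± 229 CPM in adjacent lung (SD, n = 3 each), 8.58-fold lower in tumours (log2 fold change -3.10 ± 0.56, edgeR adjusted p = 0.0177). This call was lost without tumour 102, tumour 224 or adjacent 224 (adjusted p up to 0.0582). The endothelial coreceptor gene Eng averaged 173 ± 83.2 CPM in tumours against 497 ± 138 CPM in adjacent lung without passing (edgeR adjusted p = 0.0703), and passed as lower in the block fit (adjusted p = 0.0438), in DESeq2 (adjusted p = 0.0244) and without tumour 217 (adjusted p = 0.0264). Bmpr1b, at 0.914 CPM in tumours against 7.35 CPM in adjacent lung, likewise passed in the block fit (adjusted p = 0.0159) and in DESeq2 (adjusted p = 0.00639), not in edgeR without the block (adjusted p = 0.112). Its adjacent level was 14.6, 2.93 and 4.50 CPM in mice 102, 217 and 224. In AT2 cells, Acvrl1 and Eng stood at 0.398 and 0.653 CPM on average over the 6 libraries.

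None of the 6 receptor-regulated and common SMAD genes passed, where 2.86% of all genes tested passed as higher and 7.18% as lower. Smad4, the common partner of both branches, averaged 60.6 ± 31.4 CPM in tumours against 65 ± 21.6 CPM in adjacent lung (SD, n = 3 each; log2 fold change -0.10 ± 0.46, edgeR adjusted p = 0.937). Smad3, which carries the TGF-beta signal, averaged 98.2 ± 18.9 CPM in tumours against 51.1 ± 8.03 CPM in adjacent lung, with no overlap between the groups (log2 fold change 0.94 ± 0.29, edgeR adjusted p = 0.0870), and passed in the block fit (adjusted p = 0.0265).

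Genes of TGF-beta latency and activation fell in 3 of 12 cases and rose in none, where 7.18% and 2.86% of all genes tested did. Ltbp4, which holds latent TGF-beta in the matrix, averaged 89.9 ± 4.35 CPM in tumours against 487 ± 239 CPM in adjacent lung (SD, n = 3 each; log2 fold change -2.44 ± 0.43, edgeR adjusted p = 0.0169). Ltbp1, of the same family, averaged 17.3 CPM in tumours against 94.4 CPM in adjacent lung (edgeR adjusted p = 0.0360), and Lrrc32, which tethers latent TGF-beta to cell surfaces, 14.0 CPM in tumours against 91.8 CPM in adjacent lung (edgeR adjusted p = 0.0238). Ltbp3 ran the other way, at 395 ± 169 CPM in tumours against 152 ± 61.4 CPM in adjacent lung, and did not pass (edgeR adjusted p = 0.0946), but passed in the block fit (adjusted p = 0.0167) and in DESeq2 (adjusted p = 0.0394). Its AT2 level was 293 to 660 CPM. The calls of Ltbp1 were lost when any library was left out, those of Ltbp4 without tumour 102, tumour 224 or adjacent 224, and those of Lrrc32 without these or adjacent 102. The activator Thbs1 stood at 463 CPM in tumours against 263 CPM in adjacent lung and did not pass (log2 fold change 0.81, edgeR adjusted p = 0.525; -0.09 without tumour 102).

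Of 14 extracellular antagonist genes, 1 rose and 3 fell, where 2.86% and 7.18% of all genes tested did. Bambi, a decoy receptor without a kinase domain, had 42.9, 45.6 and 57.7 CPM in tumours 102, 217 and 224, against 17.9, 12.2 and 11.8 CPM in adjacent lung, 3.49-fold higher with no overlap (log2 fold change 1.80 ± 0.32, edgeR adjusted p = 0.0164). AT2 cells held 73.9 to 119 CPM, above every lung library. Nbl1, a BMP antagonist, averaged 58.5 ± 16.1 CPM in tumours against 281 ± 65.6 CPM in adjacent lung (SD, n = 3 each; log2 fold change -2.26 ± 0.35, edgeR adjusted p = 0.0125). The lowly expressed antagonists Chrdl1 (0.550 CPM in tumours, 12.9 CPM in adjacent lung) and Lefty1 (0.507 CPM in tumours, 3.36 CPM in adjacent lung) were lower, with edgeR adjusted p-values of 0.0382 for Chrdl1 and 0.0460 for Lefty1, each kept only without tumour 217 when single libraries were left out. For Chrdl1 the adjacent lung of mice 102, 217 and 224 held 28.7, 4.19 and 5.75 CPM. Lefty1 also did not pass with DESeq2 size factors (edgeR adjusted p = 0.0535) or without the filter on low counts (edgeR adjusted p = 0.0683). The call of Bambi was lost without tumour 224, adjacent 217 or adjacent 224, and that of Nbl1 without tumour 102 or tumour 224.

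Among 12 intracellular regulators, 1 rose and none fell, where 2.86% and 7.18% of all genes tested did. Tgif1, a corepressor of SMAD target genes, rose, with 62.2, 60.9 and 104 CPM in tumours 102, 217 and 224 and 10.9, 28.3 and 24.6 CPM in adjacent lung (log2 fold change 1.83 ± 0.44, edgeR adjusted p = 0.0400). The groups did not overlap, but the call was lost when any library was left out, with library totals (edgeR adjusted p = 0.0636) and without the filter on low counts (edgeR adjusted p = 0.0601). Pmepa1, which limits TGF-beta signalling, averaged 207 ± 65.2 CPM in tumours against 94.9 ± 15.8 CPM in adjacent lung and did not pass (edgeR adjusted p = 0.0858), but passed in the block fit (adjusted p = 0.0447) and without tumour 217 (adjusted p = 0.0463).

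The target genes were split. None of 8 TGF-beta targets passed with the group as the only term, where 2.86% of all genes tested passed as higher and 7.18% as lower. With the mouse as a block, Tagln (edgeR adjusted p = 0.021) and Col1a2 (edgeR adjusted p = 0.044) passed as lower. Both were named after their values were seen, and 9.34% of all genes passed as lower in that fit. Acta2, a smooth muscle actin, averaged 97.8 ± 51.4 CPM in tumours against 192 ± 138 CPM in adjacent lung (SD, n = 3 each; edgeR adjusted p = 0.438).

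Of 7 BMP targets tested, 1 rose and 3 fell, where 2.86% and 7.18% of all genes tested did. Id2, an inhibitor of basic helix-loop-helix factors, had 216, 390.4 and 422 CPM in tumours 102, 217 and 224, against 67.4, 113 and 133 CPM in adjacent lung (log2 fold change 1.72 ± 0.41, edgeR adjusted p = 0.0379), with no overlap. The call was lost when any library was left out, with library totals (edgeR adjusted p = 0.0616) and without the filter on low counts (edgeR adjusted p = 0.0603). AT2 cells held 206 to 395 CPM. Hey1, a transcription factor of endothelial cells and the gene nearest to Smad6 in profile, averaged 11.2 ± 1.34 CPM in tumours against 55.4 ± 27.0 CPM in adjacent lung (SD, n = 3 each; log2 fold change -2.31 ± 0.41, edgeR adjusted p = 0.0164). Id4 was lower at 1.92 CPM in tumours against 12 CPM in adjacent lung (edgeR adjusted p = 0.0228), and Msx1 at 1.69 CPM in tumours against 8.08 CPM in adjacent lung (edgeR adjusted p = 0.0368). The call of Hey1 was lost without tumour 102 or tumour 224, and those of Id4 and Msx1 were kept only without tumour 217; Msx1 also did not pass without the filter on low counts (edgeR adjusted p = 0.0531). Id1, a common BMP reporter gene, had 98.3, 422 and 339 CPM in tumours 102, 217 and 224 and 141, 147 and 68.8 CPM in adjacent lung, with overlap (edgeR adjusted p = 0.227).

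Levels of different genes were compared per length, as CPM per kb of merged exons. In tumours Bmp4 was the highest of the 10 genes in every library, at 89.9 to 217 CPM per kb, where no other member exceeded 47.0. Below it, Tgfbr2 averaged 32.5 CPM per kb, and Tgfb1, Smad7, Tgfbr1 and Bmp5 followed at 22.6, 22.5, 22.4 and 21.7, which overlapped. Smad6 (13), Bmpr2 (7.84), Tgfb3 (7.72) and Tgfb2 (2.07 CPM per kb) were the lowest. In adjacent lung Smad6 had the highest mean, 57.4 CPM per kb (38.7 to 86.7). It overlapped Tgfbr2 at 41.6 to 51.1, Tgfb1 at up to 39.2 and Bmpr2 at up to 53.2. In the adjacent lung of mouse 224, Tgfbr2 and Tgfb1 lay above Smad6. Bmp4 averaged 23.0 CPM per kb, below Tgfb1 (31.2), Bmpr2 (27.2) and Smad7 (24.5), with overlapping ranges. Tgfb2 was the lowest at 4.66 CPM per kb apart from the value of Tgfbr1 in mouse 217, which was 1.01.

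In AT2 cells Bmp4 was also the highest, at 35.6 to 45 CPM per kb over the 6 libraries, followed without overlap by Tgfbr2 at 18.8 to 23.5 and then by Tgfb3 at 9.80 to 15.0. Bmp5, Tgfbr1, Bmpr2, Smad7, Tgfb1 and Smad6 followed, each overlapping its neighbours in this order, with Bmp5 at 7.82 to 11.5 and the averages of the others at 8.69, 7.33, 6.24, 5.50 and 5.08 CPM per kb. Tgfb2 lay at 0.00948 to 0.177 CPM per kb. These are the levels in libraries whose endothelial and fibroblast marker sums stayed at or under 13.1 CPM.

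**Figure D4:**
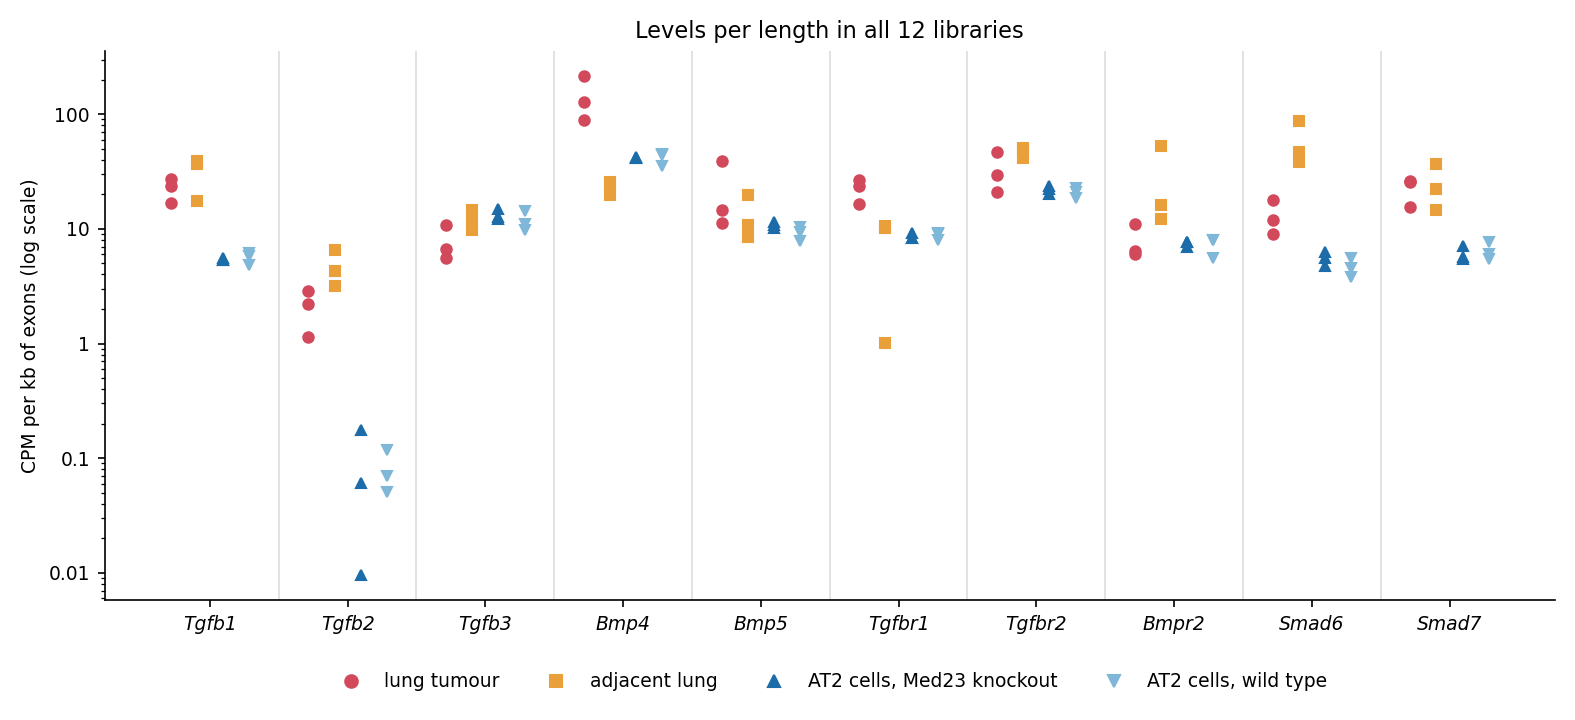
Level of each of the 10 genes in all 12 libraries, in CPM per kb of merged exons (log scale), by group. Bmp4 led in tumours and in AT2 cells, Tgfb2 was the lowest gene in AT2 cells at 0.00948 to 0.177, and the knockout and wild-type AT2 values of each gene overlapped.

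Knockout and wild-type AT2 cells were compared in the same way over 14053 genes, of which 0 passed in edgeR (0% of those tested). An unadjusted p under 0.05 was found for 347 genes (2.47%), none of them a member, and DESeq2 called 1 gene, which was no member. Of the 10 genes, 9 were tested and 0 passed, with 0 also at an unadjusted p under 0.05, and the values of the 2 genotypes overlapped for each of the 9, where 8.30% of all genes did not overlap. Bmp4 stood at 94.8, 92.9 and 93.2 CPM in knockout mice 175, 179 and 191 and at 99.0, 101 and 80.0 CPM in wild-type mice 176, 177 and 190 (log2 fold change 0.00 ± 0.14, edgeR adjusted p = 0.9998). The knockout values lay within the wild-type range. Bmp5 stood at 41.3, 46.3 and 43.5 CPM in knockout and 31.5, 37.4 and 41.4 CPM in wild-type cells (0.25 ± 0.15), where the lowest knockout value fell just below the highest wild-type value.

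Tgfb1 had 28.0, 27.1 and 26.8 CPM in knockout cells and 29.2, 24.3 and 30.9 CPM in wild-type cells (log2 fold change -0.04 ± 0.15). Tgfb3 had 40.9, 43.1 and 50.6 CPM in knockout cells and 48.8, 33.1 and 37.4 CPM in wild-type cells (0.17 ± 0.17). Both ligand genes overlapped between the genotypes. Tgfb2 was not tested, with 6, 1 and 17 counts in knockout libraries and 5, 12 and 7 counts in wild-type libraries.

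Among the receptors, Tgfbr1 had 60.4, 54.1 and 54.3 CPM in knockout cells and 51.9, 59.4 and 60.5 CPM in wild-type cells (log2 fold change -0.03 ± 0.14). Tgfbr2 had 182, 193 and 166 CPM in knockout cells and 154, 172 and 187 CPM in wild-type cells (0.08 ± 0.14). Bmpr2 had 139, 138 and 125 CPM in knockout cells and 100.2, 144 and 145 CPM in wild-type cells (0.05 ± 0.17). The knockout values of Bmpr2 lay within the wild-type range, with wild-type mouse 176 below all other libraries.

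Smad6 had 17.8, 20.1 and 15.3 CPM in knockout cells and 14.5, 12.2 and 17.7 CPM in wild-type cells (log2 fold change 0.26 ± 0.19). Smad7 had 32.3, 25.8 and 24.6 CPM in knockout cells and 34.9, 24.5 and 27.1 CPM in wild-type cells (-0.06 ± 0.18). Adjusted p-values of the 9 genes in edgeR were between 0.984 and 0.9998, which does not show that the genotypes are equal. Of the 96 other pathway genes, 58 were tested and 0 passed. Against 2.47% of all genes tested, 2 of these 58 had an unadjusted edgeR p under 0.05. These were Ltbp4 (5.08 ± 0.954 CPM in knockout and 2.55 ± 0.420 CPM in wild-type cells, SD, n = 3 each) and Nrros (2.99 ± 1.53 CPM in knockout and 1.39 ± 0.343 CPM in wild-type cells), each with an edgeR adjusted p of 0.984 and both named after their values were seen.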

How the data were processed

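Poly-A RNA libraries were made with a NEBNext Ultra RNA kit, per the labels' protocols, which does not mark strand. The authors deposited 2 tables of whole-number counts per gene, not normalised. Per the submitters' processing notes, the reads were handled on GRCm38 (mm10) with HISAT2, StringTie 1.3.3b, Trimmomatic 0.39, FastQC and DESeq2 1.28.1; how counts were made, with which annotation and strand setting, is not given in the sources used here. Names, coordinates and merged exon lengths came from GENCODE M21, and 0.0388% of the lung counts and 0.00383% of the AT2 counts fell on identifiers without a name. Reads of overlapping genes cannot be told apart: besides Bmp5, genes on the other strand overlap exons of Tgfb2, Tgfb3 and Bmp4, each covering at most 7.60% of the exon bases.

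Each table was tested in R 4.3.3 with edgeR 4.0.16 (filterByExpr, TMM, quasi-likelihood test, group as the only term), with Benjamini-Hochberg adjustment over all genes tested and a threshold of 0.05. Levels are CPM on the same scaling factors. The test was checked on simulated data. Replicates are separate mice by their numbers, and no 2 libraries of a group held near-identical counts (chi-square over degrees of freedom at least 7.23). This value was 7.23 to 10.8 among knockout AT2 libraries, 45.9 to 94.0 among wild-type AT2 libraries and at least 376 among lung libraries. Deviations of tumour and adjacent tissue went together within each mouse (Pearson r across genes of 0.273, 0.459 and 0.366), so the numbers, which mark the same animals, pair the lung libraries. Alternatives were the mouse as a block, DESeq2 1.42.0, other scalings, no filter on low counts, leaving out each library in turn and leaving out mouse 217.

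All 10 members are named; of the other pathway genes, up to 3 per role with the largest change among those that passed, or the most abundant gene of a role where none passed. The values of 1 listed pathway gene are not reported here. Members and lists were chosen with earlier results of these data known. Floors cover counting error only.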

Additional observations from a re-analysis of the deposited data

How the results depend on the processing

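Bmp4 and Smad6 kept their direction under every alternative run, and both passed under each scaling, without the filter on low counts, in DESeq2 and with the mouse as a block. Pairing by mouse as a block raised the members called lower to 3 (Tgfb2, Bmpr2 and Smad6). It raised the other pathway genes called higher to 7 and lower to 20. Over all genes it raised those called higher to 1113 (5.57%) and those called lower to 1867 (9.34%). DESeq2 called 3718 of 23504 genes tested, 1028 of them higher and 2690 lower, with 2 members and 20 other pathway genes lower. Of the other pathway genes, 2 were higher and 16 lower with library totals, and 2 were higher and 9 lower without the filter. Tgif1 and Id2 were the higher genes lost under both. Over all genes, 2233 passed (393 higher) with library totals and 1557 (404 higher) without the filter. Without mouse 217, 847 genes passed, 149 of them higher, with 0 members lower and 1 other pathway gene higher and 7 lower. When each library was left out in turn, 598 to 1854 genes passed, 137 to 461 of them higher, with 0 to 1 members higher, 0 to 1 lower, and 0 to 4 other pathway genes higher and 1 to 12 lower. Fits with libraries left out also hold fewer samples, and the cause of these shifts was not tested.

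Some values changed sign when a library was left out. Over the lung libraries left out in turn, the log2 fold change ran from -0.020 to 1.20 for Bmp5 and from -0.086 to 1.44 for Thbs1, lowest without tumour 102 for both, from -0.38 to 0.30 for Smad7 and from -0.57 to 0.21 for Smad4, the last pair highest without adjacent 102. In AT2 cells it ran from -0.14 to 0.031 for Tgfb1, -0.097 to 0.062 for Bmp4, -0.092 to 0.016 for Tgfbr1, -0.11 to 0.14 for Bmpr2 and -0.19 to 0.10 for Smad7, and scaling by library totals gave 0.011 for Tgfb1 and 0.035 for Tgfbr1. AT2 genes passing numbered 17 (11 higher) without the filter, 1 in DESeq2 and 0 to 1 (0 to 1 higher) with a library left out. No paired analysis was possible for AT2 cells because the knockout and wild-type mice share no number.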
